A study of Mus musculus with 9 samples.

Results

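Intestinal crypts are epithelial pockets, but every crypt preparation can carry RNA of the connective tissue, muscle and vessels around them. Described here are 38 genes of those neighbouring tissues among the 55341 genes counted. They were chosen by symbol: 12 collagen genes, 10 genes of matrix proteoglycans and glycoproteins, 1 collagen-folding gene, 4 genes of mesenchymal receptors, surface proteins and filaments, 5 smooth muscle genes, 5 endothelial genes and Gsn, which encodes the actin-severing protein gelsolin. Of these, 32 were abundant enough to be tested, among 16250 genes tested. The 6 that were not were the matrix genes Sparcl1 and Postn, the smooth muscle genes Tagln and Cnn1, and the endothelial genes Cdh5 and Kdr.

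The 9 libraries came from small intestinal crypts of male C57BL/6 mice aged 8 to 12 weeks, in 4 groups. In the Villin KO group (2 libraries) Pcgf6 was deleted with Villin-CreERT2 after tamoxifen, and the Villin WT group (3 libraries) is labelled with the same driver and agent. In the AhCre KO group (2 libraries) Pcgf6 was deleted with AhCre after beta-naphthoflavone (BNF), and the AhCre WT group (2 libraries) is labelled with that driver and agent. The titles place collection 15 days after the agent, whereas the design text and a description line say 7 days, and a description line of the Villin libraries names BNF where their titles name tamoxifen. PCGF6 is a subunit of a Polycomb repressive complex. Villin-CreERT2 is an intestinal epithelial driver that tamoxifen switches on, and AhCre is driven by a Cyp1a1 promoter fragment that BNF induces in intestinal epithelium and in some other organs. Nothing in the labels says whether libraries of a group came from separate animals, so all tests measure the spread between these libraries, which may be technical.

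As background, the fibroblasts of the lamina propria secrete fibrillar collagens, small leucine-rich proteoglycans and fibronectin, the proteins that make up most of the interstitial matrix. A basement membrane of type IV collagen and laminin lies between this matrix and the crypt, and type VI collagen and type XV collagen link it to the fibrils below. Crypt isolation with a chelator releases the epithelium from the basement membrane, and fibroblasts, pericytes, smooth muscle and vessel cells largely stay behind. Bulk libraries cannot tell fewer cells of a type from less RNA per cell, and this holds for every value that follows.

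Library totals ran between 6455098 and 12377921 counts. Levels are given as CPM after TMM scaling, and a floor of 3 counts corresponds to between 0.194 and 0.615 CPM, for counting error only. The targeted gene Pcgf6 was at 3.07 and 2.47 CPM in Villin KO, against 10.8, 12.7 and 9.44 CPM in Villin WT, and at 7.20 and 5.90 CPM in AhCre KO, against 14.1 and 10.1 CPM in AhCre WT. The libraries were overwhelmingly epithelial: a list of 20 pan-epithelial genes summed to between 12713 and 37856 CPM, and the 38 stromal, muscle and endothelial genes to between 97.7 and 740 CPM. Of these libraries, Villin WT 1, Villin KO 1 and Villin KO 2 stand apart and bear on the results below. Villin KO 1 had the lowest TMM factor (0.684). It held 3962 CPM of 14 tuft cell genes, where the other 8 libraries held between 107 and 1087 CPM. Villin WT 1 held more matrix RNA than the other 2 Villin WT libraries, and Villin KO 2 held 924 CPM of 7 red blood cell genes, where the other 8 libraries held between 5.90 and 285 CPM.

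Collagen and other matrix genes made up most of the summed CPM in every library except Villin WT 2 and Villin WT 3. In those libraries Gsn alone held 49.0 of 97.7 CPM (Villin WT 2) and 69.0 of 119.8 CPM (Villin WT 3). Per kilobase of exon, averaged over the 9 libraries, Gsn was highest at 32.3 CPM per kb, followed by the small proteoglycan gene Dcn (7.72), the matrix Gla protein gene Mgp (6.06), Sparc (5.33), the fibronectin gene Fn1 (4.73) and the intermediate filament gene Vim (4.61). Col1a1, which encodes the main chain of type I collagen, averaged 2.84 CPM per kb and Col3a1 2.16 CPM per kb. This order is not that of each group. In AhCre WT Fn1 (8.36 CPM per kb) followed Gsn, and Dcn (4.27) and Mgp (2.80) lay below Vim (4.61), and in Villin WT the Dcn and Mgp averages of 8.79 and 7.15 CPM per kb rest mostly on Villin WT 1. Among the muscle genes the highest was Acta2 at 0.50 CPM per kb and among the endothelial genes Cd34 at 0.496 CPM per kb. The names of the muscle and endothelial genes are therefore poorly borne out in these libraries: Tagln, Cnn1, Cdh5 and Kdr did not pass the low-count filter, and the 5 smooth muscle genes together stayed between 1.84 and 6.85 CPM in every library. Tagln is uncertain even at that level, since 67.9% of its exon bases also lie in exons of Pcsk7 or Gm48529 on the opposite strand and the library kit does not mark strand.

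**Figure D1:**
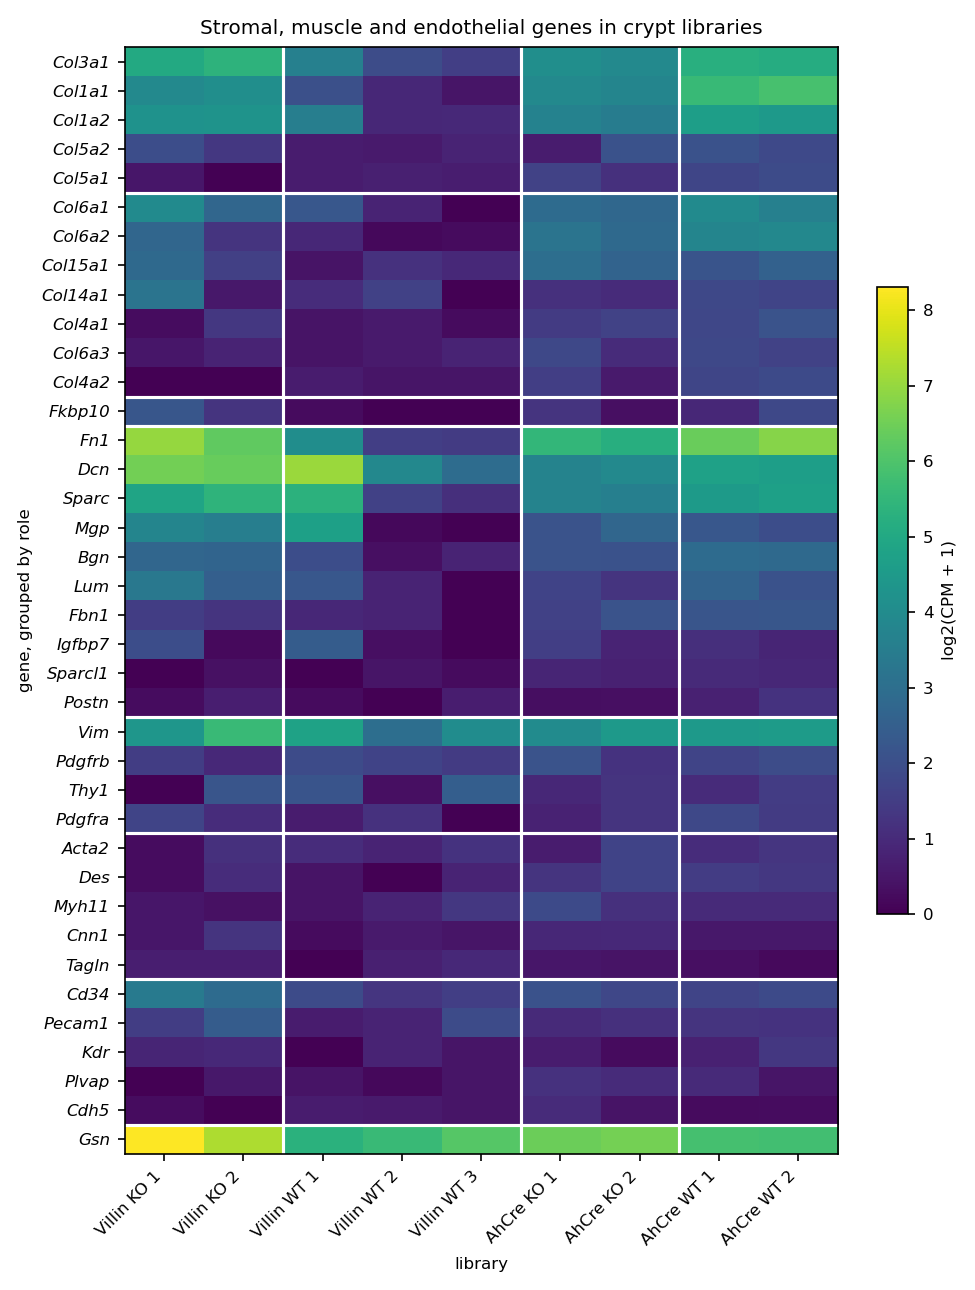
Level of all 38 genes in the 9 libraries as log2(CPM + 1), with genes in rows grouped by role (white lines) and libraries in columns (Villin KO, Villin WT, AhCre KO, AhCre WT). The more abundant collagen and matrix rows are bright in both Villin KO libraries and dark in Villin WT 2 and Villin WT 3, while in AhCre the WT columns are the brighter ones; muscle and endothelial rows are dark throughout, apart from Cd34.

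The summed level ran in opposite directions with the 2 drivers. Without Gsn, which alone made up 316 of the 740 CPM in Villin KO 1, the other 37 genes summed to 423 and 384 CPM in Villin KO, against 299, 48.7 and 50.9 CPM in Villin WT. In AhCre KO they summed to 191 and 178 CPM, against 347 and 381 CPM in AhCre WT. The group means thus stood at 3.03-fold in Villin KO over Villin WT (8.10-fold without Villin WT 1) and at 0.507-fold in AhCre KO over AhCre WT (0.651-fold with Gsn included). The 5 fibrillar collagens averaged 72.0 ± 6.55 CPM in Villin KO and 12.2 ± 12.2 CPM in Villin WT (SD, n = 2 and 3). They averaged 43.1 ± 2.00 CPM in AhCre KO and 117 ± 4.04 CPM in AhCre WT (SD, n = 2 each). The proteoglycan and glycoprotein genes averaged 251 ± 39.5 CPM in Villin KO and 86.0 ± 122 CPM in Villin WT, and here the WT mean rests on Villin WT 1, which held 226 CPM. These genes averaged 79.7 ± 4.03 CPM in AhCre KO and 167 ± 17.8 CPM in AhCre WT. Smooth muscle genes did not separate the Villin groups, at 3.24 ± 1.97 CPM in Villin KO and 3.23 ± 1.58 CPM in Villin WT. They averaged 6.38 ± 0.672 CPM in AhCre KO and 4.57 ± 0.0251 CPM in AhCre WT, higher in KO without overlap. These AhCre sums rest on between 61 and 79 counts a library. The endothelial genes averaged 12.2 ± 0.0750 CPM in Villin KO and 4.50 ± 1.14 CPM in Villin WT, and 6.16 ± 1.35 CPM in AhCre KO and 5.84 ± 0.496 CPM in AhCre WT. The Villin sums rest on 60 and 79 counts in KO and 23, 28 and 30 in WT. Cd34 averaged 7.95 CPM in Villin KO and 2.01 CPM in Villin WT. Pecam1 (3.08 against 1.34 CPM) and Kdr (0.873 against 0.385 CPM) were also higher by mean in Villin KO. Cdh5 (0.102 against 0.479 CPM) and Plvap (0.231 against 0.291 CPM) were lower.

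**Figure D2:**
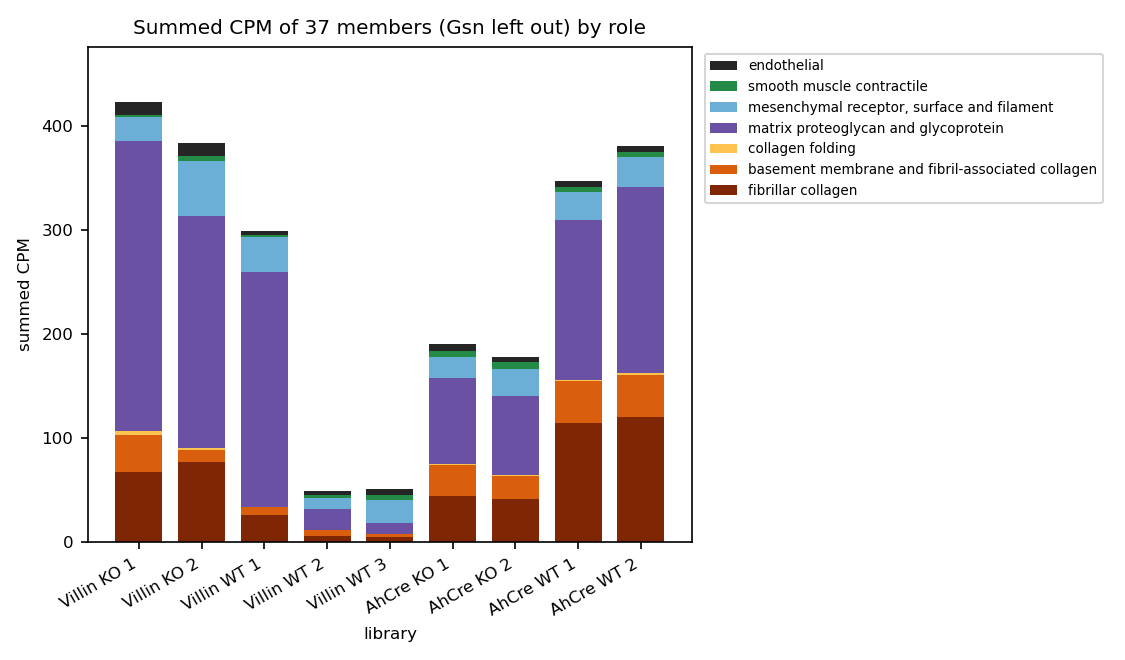
Summed CPM of the 37 genes other than Gsn in each library, stacked by role (bars start at 0). Both Villin KO bars (423 and 384 CPM) exceed the 3 Villin WT bars (299, 48.7 and 50.9 CPM), both AhCre KO bars (191 and 178 CPM) are below the AhCre WT bars (347 and 381 CPM), and Villin WT 1 stands well above the other 2 Villin WT libraries.

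With Villin-CreERT2, 3 collagen genes and the genes of fibronectin, a collagen chaperone, CD34 and gelsolin were higher in KO crypts. In the edgeR quasi-likelihood test 7 of the 32 genes tested rose (Col1a1, Col3a1, Col6a2, Fn1, Fkbp10, Cd34 and Gsn) and 0 fell, a share of 21.9%, where 3.33% of all genes tested rose and 2.88% fell. At an unadjusted p under 0.05 there were 13 higher and 1 lower (Col4a2), where 10.7% and 15.4% of all genes were, and DESeq2 called 11 higher and 0 lower. The median log2 fold change was 1.29 over the 32 genes and -0.18 over all genes tested. Scaled by library totals only, the all-gene median moved to -0.51 and the split of all calls to 344 higher and 1096 lower, against 541 higher and 468 lower with TMM, and the same 7 genes rose. Fitted to the 5 Villin libraries alone, edgeR called 4 of 20 genes tested higher (Col1a1, Col3a1, Fn1 and Gsn) and 0 lower, where 1.64% of all genes rose and 0.256% fell. For fits with a library left out, shares over all genes are not given, so those counts show only how calls moved. The 7 calls numbered 9 without Villin WT 1, 10 without Villin KO 2, 4 without AhCre WT 2 or Villin WT 2, and 1 without Villin KO 1.

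The fibrillar collagens come first, since 2 of these 5 genes rose. Col1a1 (chromosome 11, 94936224 to 94953042, GRCm38) had 14.1 and 16.0 CPM in Villin KO, against 3.06, 0.898 and 0.385 CPM in Villin WT, and these rest on 173 and 26 counts. Its log2 fold change was 3.39 (SE 0.54, adjusted p = 0.00842), and it is the one call that was kept with each of the 9 libraries left out. Col3a1 (chromosome 1, 45311538 to 45349706), the type III collagen gene, had 32.2 and 40.9 CPM in Villin KO, against 11.3, 2.82 and 1.93 CPM in Villin WT (log2 fold change 2.78, SE 0.55, adjusted p = 0.0180). Both KO libraries lay above all 3 WT libraries, and the call was lost without Villin KO 1 (adjusted p = 0.0728). Col1a2 (chromosome 6, 4504814 to 4541544), which encodes the second chain of type I collagen, was at 17.8 and 18.2 CPM in Villin KO, against 10.8, 0.898 and 0.963 CPM in Villin WT. Its log2 fold change of 2.12 (SE 0.75) did not pass the test (adjusted p = 0.104), and Villin WT 1 lay far closer to the KO libraries than to the other 2 WT libraries. RNA of type V collagen, a regulator of fibril diameter, was scarce. Col5a1 (chromosome 2, 27886425 to 28039514) had 0.41 and 0 CPM in Villin KO, against 0.539, 0.641 and 0.578 CPM in Villin WT, from 2 and 11 counts, a ratio of 0.297 (95% counting interval 0.032 to 1.36). Col5a2 had between 0.513 and 2.87 CPM in the 5 Villin libraries and was not called.

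The stretch around the start (250 bases before to 50 after, from RefSeq on GRCm38.p6, where 22 of the 38 genes matched) is shown for Col1a2, Col3a1 and Col6a1. These 3 are collagen genes that were higher in both Villin KO libraries than in any Villin WT library and lower in both AhCre KO libraries than in either AhCre WT library, so that a reader can set side by side what lies upstream of genes with a like pattern. Capitals mark CCAAT or its reverse ATTGG and TATAA or its reverse TTATA, searched on both strands. The windows are chr6:4505368-4505667 (plus strand), chr1:45311288-45311587 (plus strand) and chr10:76725995-76726294 (minus strand).
Col1a2: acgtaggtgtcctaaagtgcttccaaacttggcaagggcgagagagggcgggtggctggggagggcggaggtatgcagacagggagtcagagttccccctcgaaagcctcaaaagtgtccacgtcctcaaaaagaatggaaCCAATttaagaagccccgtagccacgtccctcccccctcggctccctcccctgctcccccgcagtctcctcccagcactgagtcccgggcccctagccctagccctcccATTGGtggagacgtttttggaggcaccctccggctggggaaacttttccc
Col3a1: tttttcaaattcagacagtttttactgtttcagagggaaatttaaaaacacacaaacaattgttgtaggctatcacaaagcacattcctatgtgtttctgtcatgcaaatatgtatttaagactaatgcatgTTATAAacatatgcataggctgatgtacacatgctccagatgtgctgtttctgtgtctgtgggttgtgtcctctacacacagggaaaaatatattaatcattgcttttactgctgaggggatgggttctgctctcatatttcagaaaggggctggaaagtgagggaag
Col6a1: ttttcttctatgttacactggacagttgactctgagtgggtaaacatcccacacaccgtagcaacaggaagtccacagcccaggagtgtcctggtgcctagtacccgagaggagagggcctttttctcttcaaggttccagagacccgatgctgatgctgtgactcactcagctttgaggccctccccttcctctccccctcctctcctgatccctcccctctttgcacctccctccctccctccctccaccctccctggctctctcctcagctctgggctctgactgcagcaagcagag
The Col1a2 window holds CCAAT and ATTGG, the Col3a1 window holds TTATA and TATAA overlapping each other, and neither motif is in the Col6a1 window. Over 32851 promoter windows of the same table, 37.4% hold CCAAT or ATTGG and 24.9% hold TATAA or TTATA. Base composition differed too, with 61.0% G and C for Col1a2, 37.7% for Col3a1 and 57.3% for Col6a1. The 3 windows thus share neither motif.

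Among the basement membrane and fibril-associated collagens 1 of 7 rose. Col6a2 (chromosome 10, 76595762 to 76623630) had 5.74 and 1.39 CPM in Villin KO, against 0.899, 0.128 and 0.193 CPM in Villin WT (log2 fold change 3.13, SE 0.77, adjusted p = 0.0375). This rests on 37 and 7 counts, and the call was lost with any 1 library left out other than Villin KO 2. Col6a1 (chromosome 10, 76708792 to 76726168), which encodes another chain of type VI collagen, had 14.8 and 5.71 CPM in Villin KO, against 3.77, 0.77 and 0 CPM in Villin WT, and missed the threshold at a log2 fold change of 2.75 (SE 0.83, adjusted p = 0.0656). Col15a1 (chromosome 4, 47208161 to 47313167), the type XV collagen gene, had 6.15 and 2.01 CPM in Villin KO, against 0.359, 1.28 and 0.963 CPM in Villin WT (log2 fold change 2.16, SE 0.64, adjusted p = 0.0639). In all 3 of these genes Villin KO 1 was the highest Villin library. Of the rest, the type VI chain gene Col6a3 stayed between 0.359 and 0.771 CPM in these 5 libraries, and Col14a1, whose product binds fibrils, had 8.19 CPM in Villin KO 1 and between 0 and 2.05 CPM in the other 4.

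The type IV collagen pair had few counts in the Villin libraries, and neither gene was called. Col4a2 (chromosome 8, 11312805 to 11449287) had 0 counts in both Villin KO libraries. Villin WT had 0.539, 0.385 and 0.385 CPM, from 8 counts in all. With the floor of 3 counts put in for the KO group, Col4a2 would be 1.63-fold lower. That is not a lower bound, since the 95% counting interval of the KO over WT ratio was 0 to 0.956. The Col4a2 difference did not pass the test (adjusted p = 0.124). Its partner Col4a1 (chromosome 8, 11198423 to 11312826) had 0.205 and 1.54 CPM in Villin KO, against 0.359, 0.513 and 0.193 CPM in Villin WT (log2 fold change 1.29, SE 0.83, adjusted p = 0.350). That fold equals the median of the 32 genes tested. Col4a1 had 10 counts in Villin KO 2 and between 1 and 4 in the other 4 Villin libraries. The genes lie head to head on opposite strands with RefSeq starts 21 bases apart, so their windows share 78 bases. They are printed because this pair is read from 1 shared start region, chr8:11312777-11313076 (minus strand) for Col4a1 and chr8:11312555-11312854 (plus strand) for Col4a2, with the same motifs in capitals.
Col4a1: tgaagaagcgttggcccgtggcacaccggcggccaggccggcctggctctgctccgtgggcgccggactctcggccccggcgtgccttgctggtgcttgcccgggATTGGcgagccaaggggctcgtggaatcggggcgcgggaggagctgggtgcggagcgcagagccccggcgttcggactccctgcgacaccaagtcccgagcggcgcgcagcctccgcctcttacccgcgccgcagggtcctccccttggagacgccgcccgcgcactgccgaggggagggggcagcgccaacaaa
Col4a2: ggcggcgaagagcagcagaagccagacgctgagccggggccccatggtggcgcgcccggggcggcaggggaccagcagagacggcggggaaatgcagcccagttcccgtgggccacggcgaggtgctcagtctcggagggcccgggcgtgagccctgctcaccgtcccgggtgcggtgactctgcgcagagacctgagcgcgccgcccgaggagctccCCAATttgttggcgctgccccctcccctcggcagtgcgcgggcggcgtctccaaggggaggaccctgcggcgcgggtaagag
ATTGG is in the Col4a1 window and CCAAT in the Col4a2 window, once each, and neither window holds TATAA or TTATA. Their G and C content is 74.0% and 73.7%.

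In the proteoglycan and glycoprotein group 1 of 8 genes tested rose. Fn1 (chromosome 1, 71585520 to 71653200), the gene of fibronectin, had 126 and 76.2 CPM in Villin KO, against 16.0, 1.92 and 1.73 CPM in Villin WT (log2 fold change 3.96, SE 0.71, adjusted p = 0.0131). These rest on 1110 and 113 counts, and the call was lost without Villin KO 1 (adjusted p = 0.0728). Lum (chromosome 10, 97565128 to 97572703), the gene of the collagen-binding proteoglycan lumican, had 9.01 and 4.78 CPM in Villin KO, against 3.77, 0.77 and 0 CPM in Villin WT (adjusted p = 0.137). Bgn (chromosome X, 73483602 to 73495933), which encodes the related proteoglycan biglycan, had 5.74 and 5.40 CPM in Villin KO, against 2.88, 0.257 and 0.771 CPM in Villin WT (adjusted p = 0.0788). Fbn1 (chromosome 2, 125300594 to 125507993), the fibrillin gene of elastic microfibrils, had 1.84 and 1.39 CPM in Villin KO, against 0.899, 0.77 and 0 CPM in Villin WT (adjusted p = 0.259). Lum, Bgn and Fbn1 did not overlap between the Villin groups, yet none passed the adjusted threshold. Lum and Bgn were among the genes at an unadjusted p under 0.05. For Fbn1, 20.1% of exon bases also lie in exons of Gm9913 on the opposite strand.

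Not every matrix gene followed Fn1. Dcn, Sparc and Mgp, singled out after their values were seen, did not separate the Villin groups because Villin WT 1 was as high as the KO libraries. Dcn, which encodes decorin, had 92.8 and 82.8 CPM in Villin KO, against 133, 13.9 and 6.74 CPM in Villin WT (log2 fold change 0.78, SE 0.83, adjusted p = 0.584). Sparc, which encodes a collagen-binding secreted protein, had 27.7 and 41.0 CPM in Villin KO, against 39.5, 2.05 and 1.16 CPM in Villin WT. Mgp had 12.9 and 10.6 CPM in Villin KO, against 25.3, 0.128 and 0 CPM in Villin WT. Without Villin WT 1 all 3 were called higher in Villin KO, together with Col1a2 and Bgn, while Col6a2, Cd34 and Fkbp10 were no longer called. Igfbp7 had between 0 and 4.31 CPM over the 5 Villin libraries, and Sparcl1 and Postn between 0 and 0.617 CPM.

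Fkbp10 (chromosome 11, 100415697 to 100424824) encodes a prolyl isomerase of the endoplasmic reticulum that helps to fold collagen. It had 3.69 and 1.39 CPM in Villin KO, against 0.18, 0 and 0 CPM in Villin WT (log2 fold change 5.20, SE 1.22, adjusted p = 0.0320). The WT group held 1 count and the KO group 27, so the count ratio of 44.1 has a 95% interval of 7.26 to 1804, and the call was lost without AhCre WT 2, Villin KO 1 or any 1 of the Villin WT libraries. Of 13 other genes tested for collagen folding and crosslinking enzymes, 3 rose and 0 fell in Villin KO: Serpinh1, the collagen chaperone gene, by 2.84 on the log2 scale (adjusted p = 0.00903), P4ha1, a prolyl hydroxylase subunit gene, by 3.26 (adjusted p = 0.0185) and Plod1, a lysyl hydroxylase gene, by 1.95 (adjusted p = 0.0235). Serpinh1 had 9.42 and 7.40 CPM in Villin KO, against 1.44, 1.41 and 0.578 CPM in Villin WT. Plod3, the member of that list with the highest level, was not called (log2 fold change 0.41). The count of 3 was 1 without Villin WT 1 and 0 without Villin KO 1, and the median of the list was 0.41.

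The mesenchymal surface and filament genes and the smooth muscle genes gave 0 calls in 7 genes tested. Vim (chromosome 2, 13573927 to 13582826), the gene of vimentin, had 19.5 and 48.1 CPM in Villin KO, against 26.6, 6.93 and 15.4 CPM in Villin WT (log2 fold change 1.06, SE 0.50, adjusted p = 0.203), and the groups overlapped. The receptor genes Pdgfra and Pdgfrb had between 0 and 2.7 CPM and the surface antigen gene Thy1 between 0 and 4.62 CPM over the Villin libraries. Acta2 (chromosome 19, 34241090 to 34255590), which encodes smooth muscle actin, had 0.205 and 1.23 CPM in Villin KO, against 1.08, 0.77 and 1.35 CPM in Villin WT (adjusted p = 0.770). Myh11, Des, Tagln and Cnn1 stayed between 0 and 1.54 CPM in these 5 libraries.

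Of the endothelial genes Cd34 alone was called. Cd34 (chromosome 1, 194938819 to 194961279), whose sialomucin product marks vessel cells and also some fibroblasts and blood progenitors, had 9.42 and 6.48 CPM in Villin KO, against 2.7, 1.41 and 1.93 CPM in Villin WT (log2 fold change 1.99, SE 0.48, adjusted p = 0.0338). The call was kept only without Villin WT 3 or without Villin KO 2. The more specific vessel genes were too low to test or gave no call. Cdh5 (chromosome 8, 104101625 to 104144511), the gene of vascular cadherin, had 0.205 and 0 CPM in Villin KO, against 0.539, 0.513 and 0.385 CPM in Villin WT, from 1 and 9 counts. Kdr (chromosome 5, 75932827 to 75978458), a receptor gene for vascular endothelial growth factor, had 0.819 and 0.926 CPM in Villin KO, against 0, 0.77 and 0.385 CPM in Villin WT. Pecam1 had between 0.539 and 4.32 CPM and Plvap between 0 and 0.463 CPM. Of 10 other endothelial and lymphatic genes tested 0 rose and 1 fell, Egfl7, by 2.40 on the log2 scale (adjusted p = 0.0217), with 0.819 and 1.08 CPM in Villin KO, against 5.39, 4.10 and 5.97 CPM in Villin WT. That call was lost without any 1 AhCre library, Villin WT 1 or Villin KO 1, and without Villin KO 2 there were 2 lower and 1 higher. Aqp1, the most abundant gene of that list, was not called (log2 fold change 0.13).

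Gsn (chromosome 2, 35256380 to 35307892), also known from epithelial cells, had 316 and 155 CPM in Villin KO, against 38.6, 49.0 and 69.0 CPM in Villin WT (log2 fold change 2.17, SE 0.35, adjusted p = 0.00929). Both KO libraries lay above the 3 WT libraries. Unlike Dcn, it was lowest in Villin WT 1, the library with the most matrix RNA of the WT group. Its call was lost without Villin KO 1 (adjusted p = 0.0728).

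**Figure D3:**
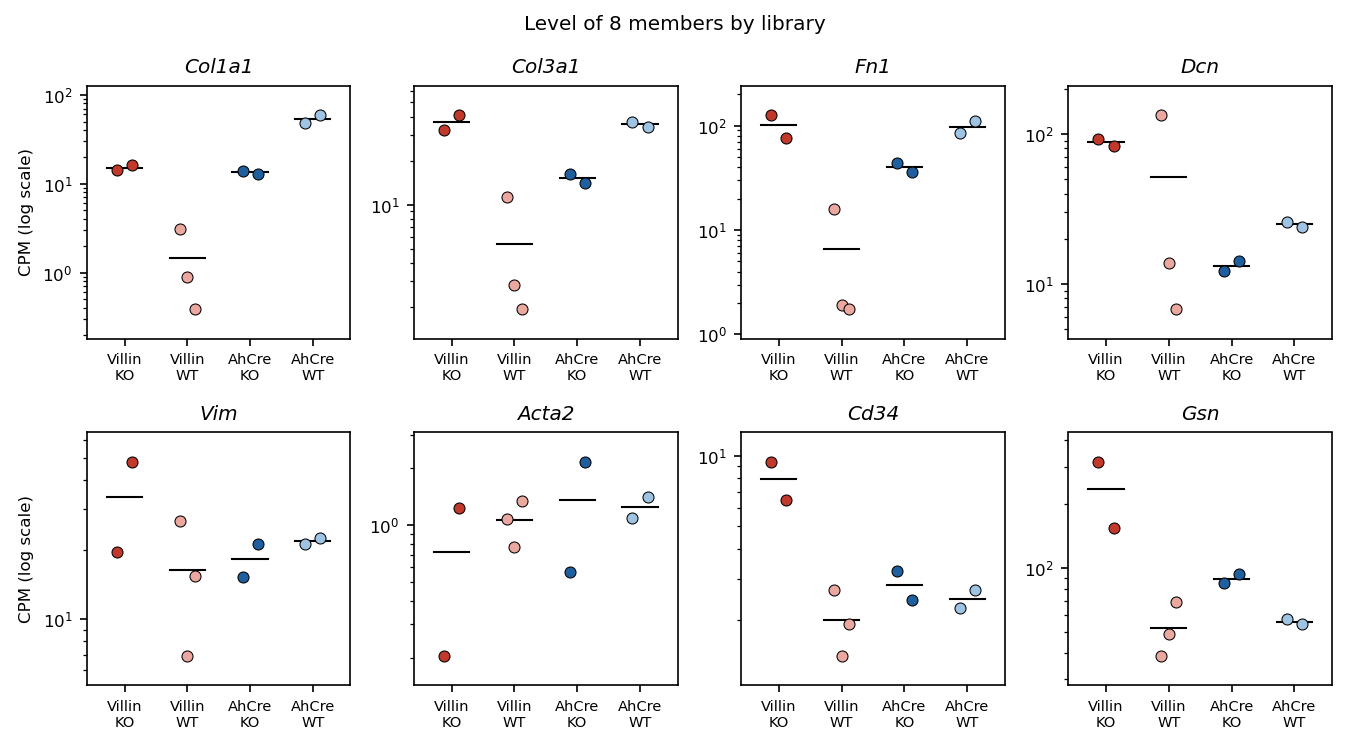
CPM on a log scale for 8 genes by group, with 1 point per library and a line at the group mean. Col1a1, Col3a1 and Fn1 are high in both Villin KO libraries and lower in AhCre KO than in AhCre WT, Dcn spans 133 to 6.74 CPM within Villin WT, Acta2 and Vim overlap between the Villin groups, and Gsn is higher in both KO groups.

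Other connective tissue lists gave few calls in Villin KO. Of 30 other fibroblast and matrix genes tested 2 rose and 0 fell, the fibulin gene Fbln1 by 1.71 on the log2 scale (adjusted p = 0.0157) and Ccdc80 by 2.57 (adjusted p = 0.0326). Fbln1, which has the highest CPM of that list, had 630 and 375 CPM in Villin KO, against 119, 185 and 156 CPM in Villin WT. Of 15 basement membrane genes 2 rose and 0 fell, among them the type XVIII collagen gene Col18a1 by 2.01 (adjusted p = 0.0344), while Agrn, the most abundant, did not pass (log2 fold change -0.16). Leaving out any 1 library other than Villin KO 2 took the basement membrane count to 0 or 1, and leaving out Villin KO 1 took the fibroblast count to 0, with 1 left without Villin KO 2, Villin WT 2 or any 1 AhCre library. Of 6 niche factor genes tested 1 rose, the prostaglandin synthase gene Ptgs2 (adjusted p = 0.0157). It had 37 and 7 counts in Villin KO and 0 in each Villin WT library. With the floor of 3 counts put in for the WT group, Ptgs2 would be 23.9-fold higher. The 95% counting interval of its KO over WT ratio started at 18.7. Ptgs2 was not called without Villin WT 1 or Villin KO 1. Dll1, the most abundant of the niche factor genes, did not pass (log2 fold change 0.04). Of 13 other smooth muscle and pericyte genes 0 were called, with Tpm1 the most abundant at 0.15, and at an unadjusted p under 0.05 there was 1 each way. Of 15 genes listed for glia, neurons and interstitial cells of Cajal 6 were tested. Of these 2 rose, the channel gene Ano1 by 2.71 (adjusted p = 0.0289) and the receptor gene Kit by 2.20 (adjusted p = 0.0293), and Erbb3 did not pass (0.07). That count fell to 1 without either AhCre WT library and to 0 without either AhCre KO library, Villin WT 1 or Villin KO 1. Which cells the RNA of these lists came from was not tested.

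With AhCre, most collagen and matrix genes had lower values in KO crypts. In the fit of all 9 libraries 0 of 32 passed the test in either direction, where 0.00615% of all genes rose and 0% fell. At an unadjusted p under 0.05 there were 0 higher and 1 lower (Col1a1), where 1.81% and 1.72% of all genes were, DESeq2 called 1 lower and limma-voom 5 lower. Fitted to the 4 AhCre libraries alone, whose replicates were closer to each other than those of Villin, edgeR called 9 of 34 genes tested lower and 1 higher, where 2.82% of all genes fell and 3.62% rose. Those lower were Col1a1, Col1a2, Col3a1, Col6a1, Col6a2, Fn1, Lum, Dcn and Sparc, and the higher one was Gsn. Leaving out AhCre WT 1 took the 9 to 5, and the other 3 left-out libraries gave 7 to 11, while the call of a higher gene was lost without AhCre WT 1 or AhCre WT 2 and was 2 without AhCre KO 2. The median log2 fold change in the fit of all libraries was -0.59 over the 32 genes and -0.0048 over all genes tested.

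Col1a1 had 13.9 and 12.8 CPM in AhCre KO, against 47.5 and 59.0 CPM in AhCre WT, from 320 and 1527 counts. Its log2 fold change was -1.99 (SE 0.52, adjusted p = 0.496) in the fit of all libraries and -1.97 (SE 0.19, adjusted p = 1.52e-06) in the fit of the AhCre libraries alone, so the size was alike and the error was not. Col3a1 had 16.3 and 14.1 CPM in AhCre KO, against 36.9 and 34.0 CPM in AhCre WT, and Col1a2 11.7 and 10.2 CPM in AhCre KO, against 24.3 and 21.8 CPM in AhCre WT. In the AhCre libraries alone their log2 fold changes were -1.21 (adjusted p = 0.000349) and -1.05 (adjusted p = 0.00250). Col5a1 had 2.10 and 1.21 CPM in AhCre KO, against 2.32 and 2.76 CPM in AhCre WT, and was not called in either fit.

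The type VI collagen genes were lower by value as well. Col6a1 had 6.47 and 5.90 CPM in AhCre KO, against 14.9 and 11.3 CPM in AhCre WT, and Col6a2 8.25 and 6.16 CPM in AhCre KO, against 12.7 and 13.6 CPM in AhCre WT. The AhCre libraries alone gave log2 fold changes of -1.07 (adjusted p = 0.00878) for Col6a1 and -0.84 (adjusted p = 0.0297) for Col6a2. The type IV pair was above the floor here: Col4a1 had 1.70 and 2.08 CPM in AhCre KO, against 2.39 and 3.36 CPM in AhCre WT, and Col4a2 1.94 and 0.52 CPM in AhCre KO, against 2.32 and 2.68 CPM in AhCre WT. Neither was called. Col15a1 went the other way, with 7.03 and 5.29 CPM in AhCre KO, against 3.42 and 5.0 CPM in AhCre WT, and did not pass in the AhCre libraries alone (adjusted p = 0.273).

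Fn1 had 44.1 and 36.3 CPM in AhCre KO, against 84.3 and 111 CPM in AhCre WT (log2 fold change -1.28, SE 0.73, in the fit of all libraries, and -1.26, SE 0.18, adjusted p = 0.000159, in the AhCre libraries alone). Lum had 2.18 and 1.39 CPM in AhCre KO, against 5.23 and 3.28 CPM in AhCre WT, and Bgn 3.40 and 3.30 CPM in AhCre KO, against 6.46 and 6.12 CPM in AhCre WT. In the AhCre libraries alone Lum passed the test (adjusted p = 0.0468) and Bgn did not (adjusted p = 0.0577). Dcn, at 12.2 and 14.1 CPM in AhCre KO, against 25.8 and 24.0 CPM in AhCre WT, and Sparc, at 12.3 and 10.9 CPM in AhCre KO, against 22.0 and 25.1 CPM in AhCre WT, separated the AhCre groups although they did not separate the Villin groups. Mgp, singled out with them above, had 3.40 and 5.64 CPM in AhCre KO, against 3.75 and 2.91 CPM in AhCre WT. Its groups overlapped (log2 fold change 0.44, SE 1.41). Igfbp7 overlapped too, with a log2 fold change of 0.45 (SE 1.24). Fbn1 had 2.02 and 3.38 CPM in AhCre KO, against 3.55 and 3.65 CPM in AhCre WT. Fkbp10 had 1.37 and 0.26 CPM in AhCre KO, against 0.904 and 2.46 CPM in AhCre WT, and the groups overlapped.

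Among the 38 genes, no vimentin, muscle or vessel gene passed the test between the AhCre groups. This held in the fit of all libraries and in that of the 4 AhCre libraries. Vim had 15.3 and 21.2 CPM in AhCre KO, against 21.2 and 22.5 CPM in AhCre WT. Acta2 had 0.566 and 2.17 CPM in AhCre KO, against 1.10 and 1.42 CPM in AhCre WT. Cd34 had 3.23 and 2.43 CPM in AhCre KO, against 2.26 and 2.68 CPM in AhCre WT, with a log2 fold change of 0.20 (SE 0.50), and its KO effect did not differ between drivers by the test (adjusted p = 0.251). Cdh5 had 1.05 and 0.347 CPM in AhCre KO, against 0.194 and 0.224 CPM in AhCre WT, and Kdr 0.566 and 0.173 CPM in AhCre KO, against 0.71 and 1.57 CPM in AhCre WT, from 17 and 6 counts for Cdh5 and 9 and 32 for Kdr. Over the pooled counts Cdh5 was 3.43-fold (1.29 to 10.6) and Kdr 0.34-fold (0.143 to 0.729) in AhCre KO against AhCre WT, with intervals that cover counting error only. The other genes of these classes, Pdgfra, Pdgfrb, Thy1, Des, Cnn1, Tagln and Pecam1, lay between 0.149 and 3.40 CPM in the 4 AhCre libraries. Myh11 and Plvap did not overlap and were higher in AhCre KO, the one at 2.67 and 1.21 CPM, against 0.969 and 0.969 CPM in AhCre WT, and the other at 1.29 and 1.04 CPM, against 0.969 and 0.373 CPM in AhCre WT. Neither passed a test. Gsn had 85.1 and 93.3 CPM in AhCre KO, against 57.3 and 54.7 CPM in AhCre WT, a log2 fold change of 0.67 (SE 0.39) in the fit of all libraries and 0.69 (adjusted p = 0.0138) in the AhCre libraries alone. None of the other gene lists had a gene called in AhCre KO in the fit of all libraries, and the medians of the collagen enzyme, basement membrane, fibroblast, smooth muscle and endothelial lists were -0.03, -0.18, -0.49, 0.10 and 0.09. At an unadjusted p under 0.05 these 5 lists had 1 gene higher and 6 lower. In the AhCre libraries alone, 6 genes of the fibroblast list were called lower and 1 higher, and 1 basement membrane gene each way. That fit also called 2 genes of the smooth muscle list and 2 of the endothelial list higher, and 0 lower. Of the glia, neuron and interstitial cell list it called 2 higher and 1 lower. Over all genes, 2.82% fell and 3.62% rose in that fit.

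**Figure D4:**
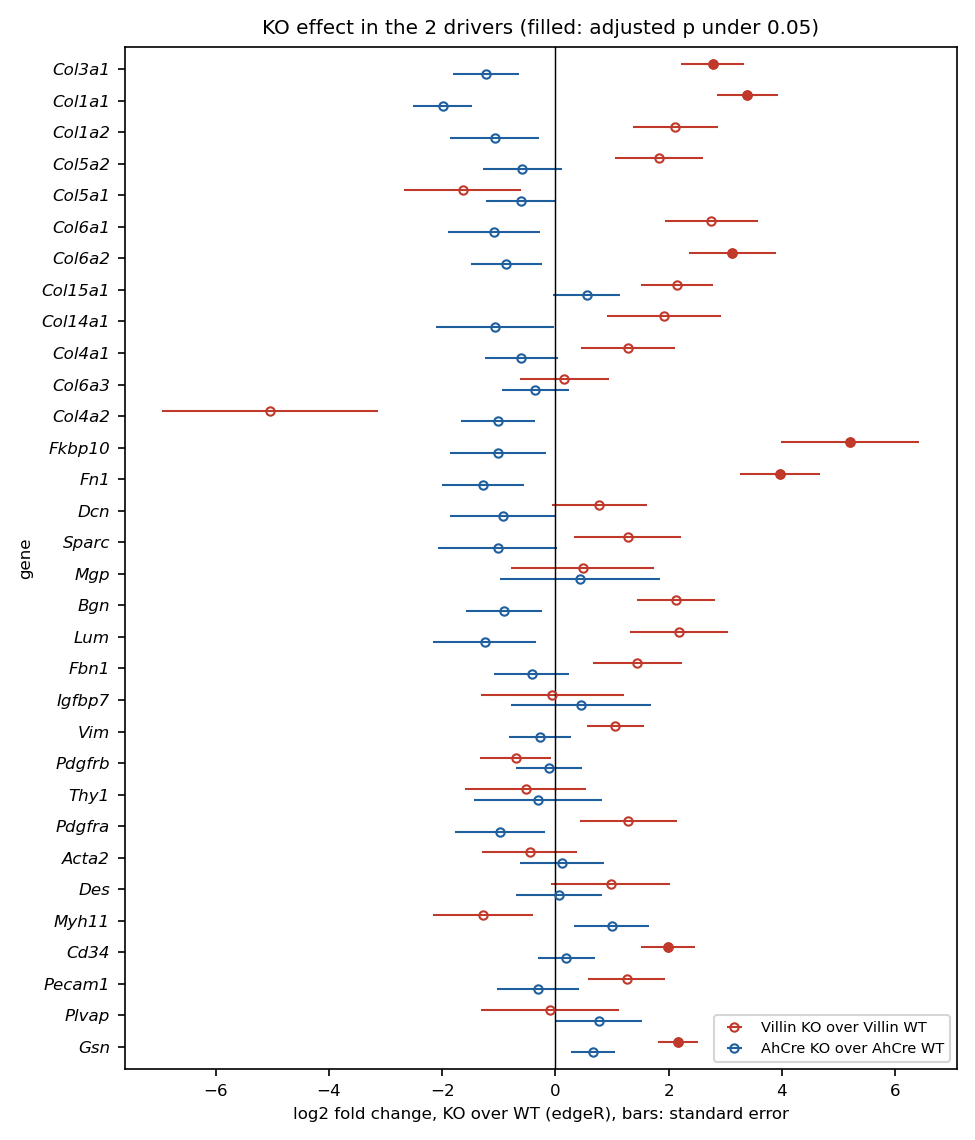
Log2 fold change of KO over WT for the 32 genes tested, in Villin (red) and AhCre (blue), from edgeR on all 9 libraries, with bars of 1 standard error and filled points for an adjusted p under 0.05. The 7 filled points are all in Villin and to the right of 0, and most collagen and matrix genes have a Villin point right of 0 and an AhCre point left of 0.

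The KO effects were therefore compared between drivers directly. The difference (AhCre minus Villin) was called for 1 of 32 genes, Col1a1, at -5.38 on the log2 scale (SE 0.75, adjusted p = 0.0346), where 0.0677% of all genes had a lower and 0.00615% a higher difference. The call was lost without any 1 AhCre library, without Villin WT 2 and without Villin KO 1 (adjusted p between 0.0743 and 0.489), and numbered 6 genes without Villin WT 1 and 5 without Villin KO 2. Fn1 (-5.24, SE 1.03) and Col3a1 (-4.00, SE 0.81) both missed the threshold at an adjusted p of 0.0983. At an unadjusted p under 0.05, 12 of 32 genes (37.5%) had a lower difference and 0 a higher one, where 6.32% and 9.55% of all genes did. DESeq2 called 6 lower, namely Col1a1, Col1a2, Col3a1, Col6a2, Fn1 and Bgn. The share over all genes in that fit is not given here, so this count is not read as a result about the set. The median difference was -1.74 over the 32 genes and 0.18 over all genes tested (0.48 with library totals only).

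Counted by library, 9 of 32 genes (28.1%) were higher in both Villin KO libraries than in any Villin WT library and lower in both AhCre KO libraries than in either AhCre WT library, where 5.03% of all genes were. These were Col1a1, Col1a2, Col3a1, Col6a1, Col6a2, Fn1, Fbn1, Lum and Bgn, all secreted matrix genes. The reverse pattern was held by 0 of 32 genes and by 4.65% of all genes. Gsn and Col15a1 were higher in both KO groups without overlap (3.42% of all genes), and Col5a1 and Col4a2 were lower in both (4.12% of all genes). Within Villin, 14 of 32 genes lay higher without overlap (14.5% of all genes) and 2 lower (19.8% of all genes). Within AhCre, 18 lay lower (25.1% of all genes) and 4 higher (23.4% of all genes).

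Averaged over both drivers, only Gsn was called among the 32 genes, at a log2 fold change of 1.42 (SE 0.26, adjusted p = 0.0236), where 0.972% of all genes rose and 0.197% fell. That call was kept in 2 of 9 fits with a library left out, those without Villin WT 3 and without Villin KO 2, and without Villin WT 1 the genes called were Fn1 and Mgp. For the collagens the average joins values of opposite sign, so Col1a1 stood at 0.70 (adjusted p = 0.428) and Col3a1 at 0.78 (adjusted p = 0.417). Gsn is in this respect unlike Col1a1 and Col3a1, since its AhCre fold had the same sign as its Villin fold.

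The WT crypts of the 2 lines also differed, with matrix RNA higher in AhCre WT than in Villin WT. Of 32 genes 9 rose and 0 fell, where 4.04% of all genes rose and 3.53% fell (1696 higher and 276 lower with library totals only, against 657 and 574 with TMM). Driver, inducing agent and any batch cannot be told apart in this comparison. Col1a1 averaged 53.3 ± 8.11 CPM in AhCre WT and 1.45 ± 1.42 CPM in Villin WT (SD, n = 2 and 3), a log2 fold change of 5.21 (SE 0.54, adjusted p = 0.00149), called with each library left out. Col6a2 averaged 13.1 ± 0.648 CPM in AhCre WT and 0.407 ± 0.427 CPM in Villin WT (5.04, SE 0.72, adjusted p = 0.00647), a call lost without AhCre WT 2. Fn1 averaged 97.7 ± 18.8 CPM in AhCre WT and 6.55 ± 8.18 CPM in Villin WT (3.91, adjusted p = 0.0132), and Col3a1 35.5 ± 2.07 CPM in AhCre WT and 5.36 ± 5.19 CPM in Villin WT (2.74, adjusted p = 0.0184). These calls were lost without either AhCre WT library. Col4a1 (2.91), Col6a1 (3.12), Col15a1 (2.22), Fbn1 (2.61) and Fkbp10 (4.63) also rose, at an adjusted p between 0.0329 and 0.0471, and were lost in 6 or 7 of the 9 fits with a library left out. For Fkbp10 the Villin WT group held 1 count. The count of 9 was 1 with AhCre WT 2 left out, 2 with AhCre WT 1 left out, 4 with Villin WT 3 or either AhCre KO library left out and 14 with Villin KO 2 left out, and it was 16 with library totals only. Without Villin WT 1 the count was also 9, but Col4a1, Col15a1, Fbn1 and Fkbp10 were not among them and Col1a2, Mgp, Sparc and Bgn were. Mgp then stood at 5.23 (adjusted p = 0.0324), against -1.33 (adjusted p = 0.530) with all libraries. With all libraries the muscle and endothelial genes, Vim, Gsn, Dcn and Mgp were not called, Gsn with a log2 fold change of 0.10 (SE 0.35) and Dcn of -1.04 (SE 0.87).

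The lists around them moved in part in the same comparison. Higher in AhCre WT were 3 of 13 collagen enzymes (Serpinh1 3.39, Crtap 2.23 and Loxl1 3.23), 3 of 15 basement membrane genes (Nid1 3.71, the perlecan gene Hspg2 3.07 and Lamc1 2.22), 5 of 30 fibroblast genes (Prelp 2.07, Thbs1 2.33 and Timp3 2.34 had the lowest adjusted p) and 2 of 6 niche factors, among them Bmp7 at 3.00. Among smooth muscle and pericyte genes 1 rose (Csrp1, 1.62) and 1 fell (Tpm2, -2.36), and 0 endothelial genes were called, with 1 higher at an unadjusted p under 0.05. Without AhCre WT 2 every one of these counts was 0, and without AhCre WT 1 the enzyme, basement membrane and niche counts were 1 each and the fibroblast and muscle counts 0. Over all 9 libraries left out in turn the enzyme count ran up to 5, the basement membrane count up to 7 and the fibroblast count up to 8, each of these without Villin KO 2.

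The balance between matrix genes changed along with their level. Within a library the ratio of 2 genes' counts does not depend on depth or scaling, and intervals are exact binomial at 95%, for counting error only. Col1a1 over Dcn was 0.152 (0.117 to 0.197) and 0.194 (0.155 to 0.239) in Villin KO, against 0.0229 (0.0133 to 0.0369), 0.0648 (0.0255 to 0.138) and 0.0571 (0.00666 to 0.222) in Villin WT. The same ratio was 1.14 (0.910 to 1.43) and 0.908 (0.722 to 1.14) in AhCre KO, against 1.84 (1.63 to 2.08) and 2.46 (2.16 to 2.81) in AhCre WT. By these point values the 4 groups did not overlap, and every AhCre library lay above every Villin library. Within Villin the intervals did overlap. That of Villin WT 3, from 2 Col1a1 counts, covers both Villin KO ratios, and that of Villin WT 2 overlaps that of Villin KO 1. Dcn, the denominator, was singled out after its values were seen, among them the high one in Villin WT 1. Fn1 over Dcn was 1.36 and 0.920 in Villin KO, against 0.120, 0.139 and 0.257 in Villin WT. It was 3.61 and 2.57 in AhCre KO, against 3.27 and 4.62 in AhCre WT, and these overlapped. In Villin WT 1, Sparc had 3.49 times the counts of Col3a1, and in the other 8 libraries between 0.594 and 1.00 times. The matrix RNA of Villin WT 1 was thus rich in Dcn, Sparc and Mgp and poor in collagen I and fibronectin RNA relative to both KO libraries of that line. No test was made of these ratios.

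**Figure D5:**
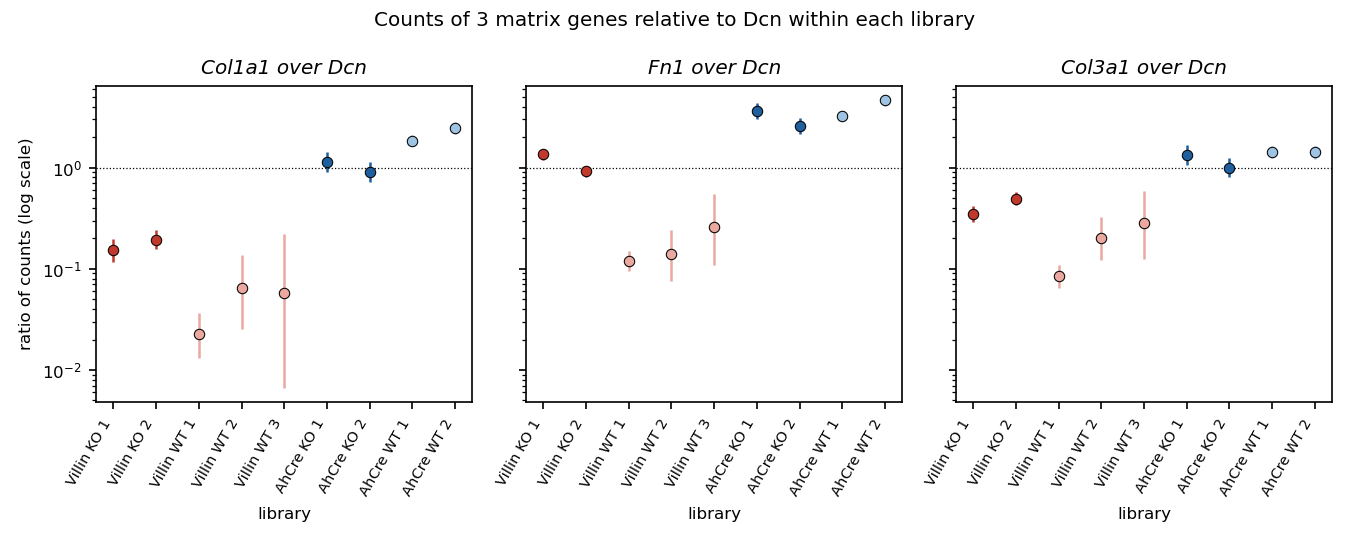
Ratio of the counts of Col1a1, Fn1 and Col3a1 to those of Dcn in each library on a log axis, with exact binomial 95% intervals (counting error only). Col1a1 over Dcn is 0.152 and 0.194 in Villin KO, at most 0.0648 in Villin WT and at least 0.908 in the AhCre libraries.

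Markers of other cells moved with some of these results. The 21 leukocyte genes summed to 387 and 1482 CPM in Villin KO, against 310, 71.6 and 821 CPM in Villin WT, and to 214 and 241 CPM in AhCre KO, against 298 and 306 CPM in AhCre WT, with 0 of 20 tested called in either driver (4 higher and 1 lower at an unadjusted p under 0.05 in Villin, and 1 each way in AhCre). Lyz2, the most abundant, had a log2 fold change of 3.06 in Villin (adjusted p = 0.0753) and -1.04 in AhCre. The 7 red blood cell genes summed to 22.7 and 924 CPM in Villin KO, against 41.9, 5.90 and 285 CPM in Villin WT, and to 53.8 and 68.3 CPM in AhCre KO, against 25.1 and 32.2 CPM in AhCre WT, with 0 of 5 tested called (3 higher at an unadjusted p under 0.05 in Villin, 0 in AhCre). The epithelial lists moved too: the 12 enterocyte genes summed to 62674 and 42541 CPM in Villin KO, against 32750, 19689 and 32648 CPM in Villin WT, with 6 of 12 rising, and the 10 crypt base stem cell genes to 595 and 1600 CPM in Villin KO, against 1127, 2579 and 2376 CPM in Villin WT, with 3 of 10 falling (Slc12a2 -2.06, Axin2 -1.41 and Lgr5 -1.40). The enterocyte count was 1 or 2 without any 1 AhCre library, Villin WT 1 or Villin KO 1, and the stem cell count was 0 without Villin WT 1 or Villin KO 1, 1 without Villin WT 2 or any 1 AhCre library, and 5 without Villin KO 2. Of the 20 pan-epithelial genes 3 rose (Krt20 1.33, Krt18 1.76 and Cdhr5 1.31) and 1 fell in Villin KO, with 0 or 1 rising in 7 of the 9 fits with a library left out, and all 14 tuft cell genes rose (among them Avil 4.90 and Alox5ap 4.33), with 4 rising without Villin WT 1 and 3 without Villin KO 1. In AhCre KO 0 genes of these 4 lists were called, and at an unadjusted p under 0.05 all 14 tuft cell genes were higher. In the AhCre libraries alone, where 9 genes of the matrix set were called lower, 6 leukocyte genes and 5 enterocyte genes were called lower too, and 2 leukocyte genes and 2 red blood cell genes higher. Limma-voom called all 14 tuft cell genes higher in AhCre KO, and edgeR 6 without Villin KO 1 and 7 without Villin KO 2. Between the WT groups, 4 of 12 enterocyte genes (among them Apoa4 -2.47 and Apoa1 -1.76), 3 of 20 pan-epithelial genes (among them Lgals4 -1.51) and 1 of 20 leukocyte genes tested (Trac) were lower in AhCre WT, and 3 of 10 stem cell genes were higher (Axin2 1.66, Sox9 2.03 and Lgr5 1.28). Each of these 4 counts was 0 without AhCre WT 1 or AhCre WT 2 and at most 2 without Villin WT 1 or either AhCre KO library, and without Villin WT 2 the pan-epithelial count was 8 and the leukocyte count 2. Without Villin WT 3 these were both 0 and the stem cell count was 1. Of the tuft cell and red blood cell genes 0 were called there (1 and 0 higher and 0 lower at an unadjusted p under 0.05), although 3 tuft cell genes were higher without either Villin KO library. The part of leukocyte, blood or epithelial composition in the matrix results was not tested.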

How the data were processed

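Crypt RNA (2 ng) was sequenced as 9 full-length Smart-seq2 libraries, which carry neither strand nor molecular identifiers. The authors deposited whole-number counts per gene, made with STAR 2.7 and featureCounts on mm10, per the submitters' processing notes, which also name DESeq2 1.20. No further setting is given in the sources used here. Positions and exon lengths come from GENCODE M21 on GRCm38. Counts were tested with edgeR 4.0.16 (R 4.3.3): TMM scaling, filterByExpr, 1 fit of all 4 groups (5 residual degrees of freedom) with the quasi-likelihood test, and Benjamini-Hochberg adjustment over 16250 genes at 0.05. The fit was tested on simulated data. Intervals and floors (3 counts) cover counting error only.

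Members and lists were chosen with earlier results of these data known. Values by library are given for members called in any of 5 contrasts, for the highest mean CPM of each role, and for members whose KO and WT libraries are separate in each driver; of each list, up to 3 called genes by adjusted p and the one with the highest mean CPM are named, apart from a few list genes that are not reported here. Alternatives were DESeq2 1.42.0, limma-voom (limma 3.58.1), other scalings and filters, each driver alone, a replicate block and each library left out. The fits of 1 library left out of the AhCre libraries alone, the crossed block and the sum with Gsn were chosen after seeing the data.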

Additional observations from a re-analysis of the deposited data

Results flagged for a closer look

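The KO effect on Col1a1 differed between drivers by -5.38 on the log2 scale (AhCre minus Villin, SE 0.75, edgeR quasi-likelihood test of the difference, adjusted p = 0.0346). It was singled out because the test of the difference itself passed the threshold. Col1a1 was higher in 2 of 2 Villin KO libraries than in any Villin WT library (log2 fold change 3.39) and lower in 2 of 2 AhCre KO libraries than in either AhCre WT library (log2 fold change -1.99). With a library left out the difference ran between -6.44 and -4.98, and the call was lost without any 1 AhCre library, without Villin WT 2 and without Villin KO 1. Driver, inducing agent and any batch change together between the 2 lines and cannot be told apart.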

How the results depend on the processing

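Of the 18 tested genes given in full, with Dcn, Sparc and Mgp added, none that passed in a comparison changed sign there, and 8 changed sign where they had not passed. Mgp alone also passed with the new sign, between the WT groups without Villin WT 1. With a library left out, Acta2 ran between -2.28 and 0.24 in Villin (log2 scale), -1.13 and 0.78 in AhCre, -0.67 and 2.39 in the difference, and -1.08 and 0.18 in the average, and in AhCre it was -0.16 by limma-voom, -0.077 with the replicate block and -0.052 with the crossed replicate block. Col4a1 ran between -0.82 and 2.02 in Villin, -2.61 and 0.22 in the difference and -0.71 and 0.71 in the average, and Col5a1 between -0.094 and 4.95 in the difference. Cd34 ran between -0.025 and 0.39 in AhCre and was -0.19 between the WT groups with the crossed replicate block, and Gsn ran between -0.072 and 0.35 between the WT groups. Mgp ran between -0.091 and 7.05 in Villin, -6.61 and 0.53 in the difference and -1.91 and 5.23 between the WT groups, and was 0.17 in the difference with library totals only, 0.049 there with no low-count filter and 1.74 between the WT groups by limma-voom. Dcn ran between -0.33 and 1.08 in the average and -1.56 and 1.26 between the WT groups, and in the average was 0.40 by limma-voom, 0.037 with the replicate block and 0.036 with the crossed replicate block. Sparc ran between -0.14 and 1.68 in the average, where library totals only gave -0.0022, and was -0.018 between the WT groups with the replicate block and -0.10 with the crossed one. The 7 genes called higher in Villin KO numbered 12 with no low-count filter, 11 by DESeq2, 4 by limma-voom, 4 in the Villin libraries alone (Col1a1, Col3a1, Fn1 and Gsn) and between 1 and 10 with a library left out. In AhCre KO the 0 called lower numbered 1 with no filter, 1 by DESeq2, 5 by limma-voom and 9 in the AhCre libraries alone, where 1 was higher, and these ran between 5 and 11 and between 0 and 2 with a library left out. The 1 gene with a lower difference between drivers numbered 9 with no filter, 6 by DESeq2, 4 by limma-voom and between 0 and 6 with a library left out. The 1 gene called on average numbered 2 with no filter, 2 by limma-voom and between 0 and 2 with a library left out. The 9 genes higher in AhCre WT than in Villin WT numbered 16 with library totals only and between 1 and 14 with a library left out. The fold of summed CPM without Gsn ran between 2.30 and 8.10 in Villin and between 0.484 and 0.532 in AhCre with a library left out, and was 0.651 in AhCre with Gsn. The cause of these shifts was not tested. With library totals only, all-gene medians moved to -0.51 in Villin, 0.48 in the difference, -0.27 in the average and 0.38 between the WT groups, where TMM gave -0.18, 0.18, -0.095 and -0.066, and the average's calls over all genes split into 167 higher and 81 lower, against 158 and 32 with TMM. Over all genes, Villin calls were 832 higher and 759 lower with no filter, 1097 and 652 by DESeq2, 132 and 6 by limma-voom, and 224 and 35 in Villin alone. AhCre calls were 115 and 22 with no filter, 49 and 25 by DESeq2 and 518 and 393 by limma-voom. Counts over all genes are not given for these fits of the difference and the average, nor for fits with a library left out. The counts of members in those fits show only how calls moved.

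The deviations of libraries 1 and 2 from their mean correlated over genes between same-numbered KO and WT libraries at -0.107 in AhCre and -0.102 in Villin. With 2 libraries a group, both numbers give the same value by construction, and Villin WT 3 is left out. These values therefore cannot decide whether the numbers pair the samples. With the number as a replicate block the counts were 3 in Villin, 0 in AhCre, 0 for the difference, 0 for the average and 0 between the WT groups. With the AhCre numbers crossed in the replicate block, all of these counts were 0. Depth limits genes near the floor of 3 counts, among them Col4a2 and Postn in Villin.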
